A study of Mus musculus with 6 samples.

Results

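The genes described here are 10 feedback inhibitors of SMAD signalling, followed by RNA sequencing in primary mouse hepatic stellate cells. They are the inhibitory SMADs Smad6 and Smad7, the membrane proteins Pmepa1, Ldlrad4 and Bambi, the nuclear corepressors Ski, Skil and Tgif1, and the ubiquitin ligases Smurf1 and Smurf2. They were chosen by symbol from the 56691 genes of the deposited table, for their known roles, and all 10 were found and passed the filter on low counts. Stellate cells are the liver's pericyte-like, vitamin A-storing cells, which turn into collagen-producing myofibroblasts in fibrosis. The cells came from wild-type mouse liver and fell into 3 groups of 2 libraries each. Cells of the first group, TGF-beta-K-80003, received TGF-beta together with K-80003, a compound that binds the nuclear receptor RXRα, which the study's title names. Cells of the TGF-beta group received TGF-beta alone, and those of the Control group served as the controls. Among these groups, none received K-80003 without TGF-beta. The labels do not give doses, treatment times, mouse age or whether the replicates came from separate mice or cultures, so the p-values measure the spread between these libraries, which may be technical.

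TGF-beta ligands bind a pair of serine/threonine kinase receptors, which phosphorylate SMAD2 and SMAD3. BMP ligands act in the same way through SMAD1, SMAD5 and SMAD9. The phosphorylated SMADs join SMAD4, enter the nucleus and switch target genes on or off, among them genes for inhibitors of the pathway itself. SMAD7 competes for the activated receptors and brings the SMURF ligases to them for ubiquitylation, while SMAD6 acts mainly on the BMP branch. PMEPA1 and LDLRAD4 are related membrane proteins that keep receptor-regulated SMADs away from the receptor anchor SARA, and BAMBI is a decoy receptor that lacks a kinase domain. SKI and SKIL (SnoN) bind SMAD complexes on DNA and recruit histone deacetylase complexes. TGIF1 is a homeodomain corepressor of SMAD2 and SMAD3 that was first isolated as a protein binding a retinoid X receptor response element. In stellate cells TGF-beta is the best known inducer of the collagen programme.

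Each library held between 15646093 and 19004144 counts, and a member's count in 1 library ran from 84 to 9261. Levels are given as CPM, counts scaled by TMM to a common library size, for the same gene across libraries, and as FPKM, which also divides by exonic length, wherever different genes are set side by side. In the annotation of the authors' deposited table, 9 of the 10 genes, all but Tgif1, carried the term for negative regulation of TGF-beta receptor signalling, a term held by 74 genes of the table. Of the members, 7 also carried negative regulation of BMP signalling, a term held by 65 genes. The summed FPKM of 8 stellate cell markers was 287 and 239 in TGF-beta-K-80003 cells, 461 and 571 in TGF-beta cells, and 669 and 517 in Control cells. Each of the 8 had at least 49 counts in every library. Of all genes tested, 7.32% were called lower in TGF-beta-K-80003 cells against TGF-beta cells and 11.7% against Control cells. Of the 8 markers, 6 were called lower and 0 higher against TGF-beta cells, and likewise 6 and 0 against Control cells. The largest of these falls was that of Lrat, the retinol-esterifying enzyme of stellate cells, at 2.07 and 2.40 FPKM in TGF-beta-K-80003 cells, 70.7 and 83.1 FPKM in TGF-beta cells, and 210.0 and 151 FPKM in Control cells. The most abundant by mean level was Pdgfrb, at 98.3 and 84.3 FPKM in TGF-beta-K-80003 cells, 164 and 227 FPKM in TGF-beta cells, and 108 and 77.5 FPKM in Control cells. The 1 library that stood apart by a marker list was TGF-beta-K-80003 replicate 2, where 6 hepatocyte markers summed to 25.2 FPKM, against between 2.00 and 5.45 FPKM in the other libraries. Alb alone was at 10.8 FPKM there.

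The 10 genes spanned a wide range of levels per length, and their order differed between the groups. In TGF-beta-K-80003 cells Pmepa1 led at 62.8 ± 5.13 FPKM (SD, n = 2 here and below), followed by Ski at 47.4 ± 3.49 and the ligases Smurf1 at 33.3 ± 3.87 and Smurf2 at 29.5 ± 4.72 FPKM. Tgif1 came next at 24.7 ± 0.148 FPKM, above Skil at 21.1 ± 2.98, Smad6 at 19.3 ± 1.97 and Smad7 at 18.9 ± 0.438 FPKM. In TGF-beta cells Pmepa1 stood at 94.3 ± 12 FPKM, well apart from Ski at 38.9 ± 3.30 and Smad6 at 34.7 ± 3.1 FPKM. The next 4 genes there overlapped their neighbours, from Smad7 at 25.7 ± 0.198 through Smurf2 at 24.3 ± 4.76 and Smurf1 at 22.4 ± 4.98 to Skil at 21.7 ± 2.23 FPKM. In Control cells Smad6 at 32.1 ± 0.544 and Ski at 31.3 ± 1.54 FPKM were highest and overlapped. Smurf1 at 18.6 ± 3.73, Pmepa1 at 17.8 ± 2.05, Smurf2 at 17.5 ± 3.20 and Smad7 at 16.5 ± 0.240 FPKM formed a block of neighbours that overlapped. Bambi, at 13.5 ± 2.48 FPKM in TGF-beta-K-80003 cells, 11.7 ± 2.68 in TGF-beta cells and 9.86 ± 1.27 in Control cells, stood ninth in all 3 groups. Ldlrad4 was last in every group, at 3.20 ± 0.396 FPKM in TGF-beta-K-80003 cells, 2.88 ± 0.898 in TGF-beta cells and 1.20 ± 0.368 in Control cells. Smad6 changed place most among the 10, with rank 7 in TGF-beta-K-80003 cells, 3 in TGF-beta cells and 1 in Control cells. Among all genes tested, Pmepa1 was above 95.5% in both TGF-beta-K-80003 libraries, above 97.2% in both TGF-beta libraries and above 80.3% and 82.1% in the Control libraries.

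**Figure D1:**
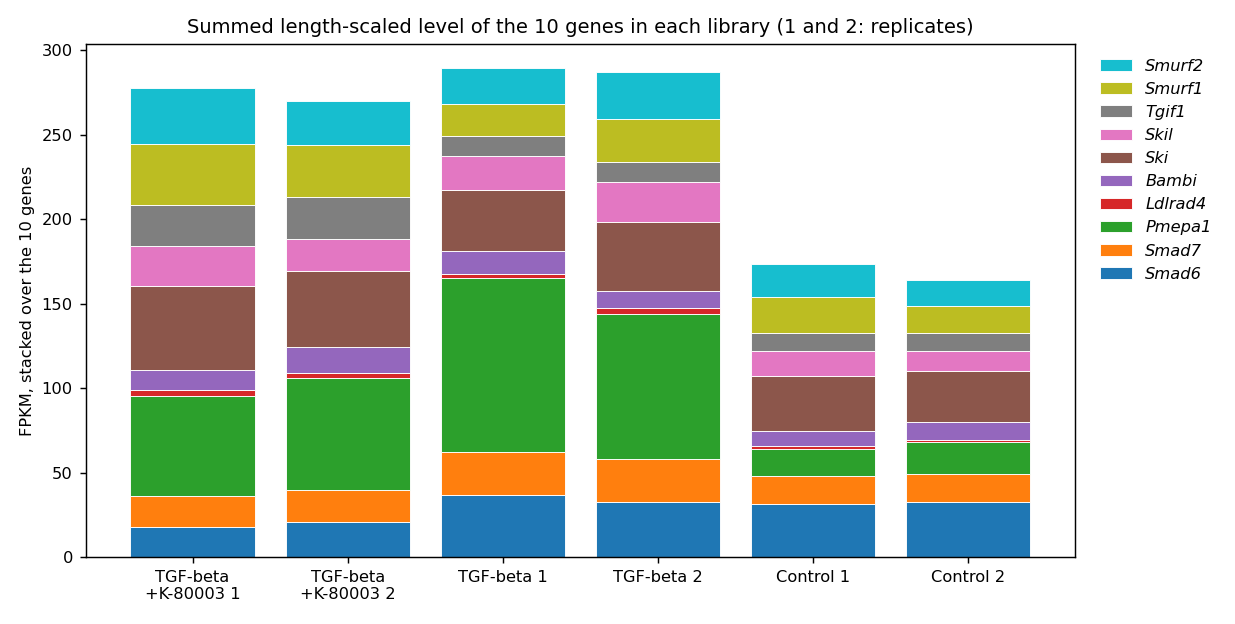
Stacked FPKM (vertical axis) of the 10 genes in each of the 6 libraries (horizontal axis), 1 colour a gene. The bars reach 277 and 270.0 in TGF-beta-K-80003 cells, 289 and 287 in TGF-beta cells, and 174 and 164 in Control cells, and the green segment, Pmepa1, differs most between the groups.

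Summed over the 10 genes, the level was 274 ± 5.29 FPKM in TGF-beta-K-80003 cells, 288 ± 1.42 FPKM in TGF-beta cells and 169 ± 6.98 FPKM in Control cells. The libraries given K-80003 thus lay near those given TGF-beta alone in their total, but the total was made up differently. Pmepa1 took 23.0% ± 2.32 of the sum in TGF-beta-K-80003 cells, 32.7% ± 4.0 in TGF-beta cells and 10.5% ± 1.65 in Control cells. Tgif1 took 9.03% of the sum in TGF-beta-K-80003 cells, 4.11% in TGF-beta cells and 6.17% in Control cells. Smad6 took 7.06% of it in TGF-beta-K-80003 cells, 12% in TGF-beta cells and 19% in Control cells. These sums and shares are descriptions, since an exact permutation test of 2 libraries against 2 cannot give a two-sided p below 0.333. In bulk RNA a lower level cannot be told apart from fewer cells that hold the transcript, and this holds for every value below.

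**Figure D2:**
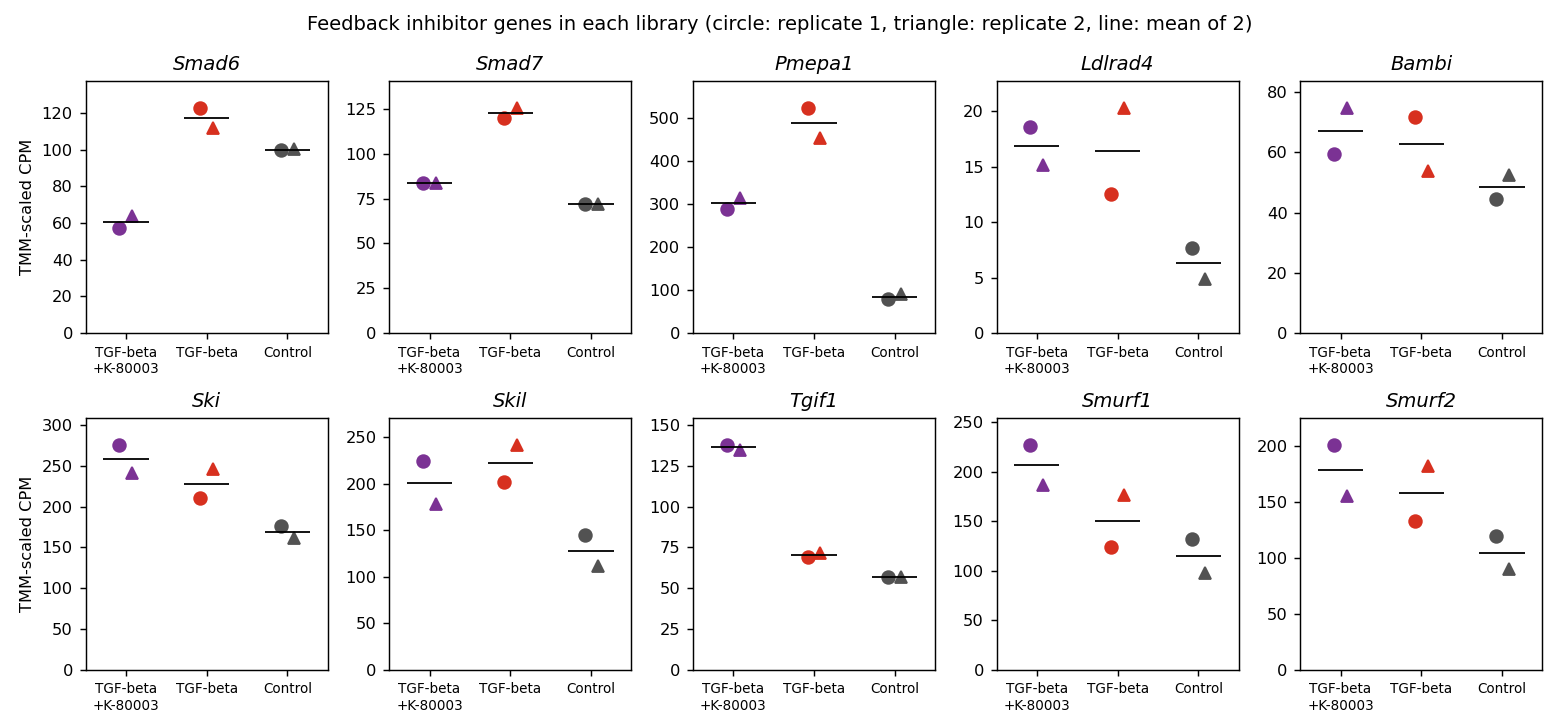
TMM-scaled CPM (vertical axes, each from 0) of the 10 genes in the 6 libraries, by group (horizontal axes); circles are replicate 1, triangles replicate 2 and lines the mean of both. Smad6 was lowest and Tgif1 highest in the TGF-beta-K-80003 libraries, while Pmepa1 and Smad7 lay between the TGF-beta and Control libraries there.

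The first comparison asks how the cells' own inhibitors answered TGF-beta. In TGF-beta cells Pmepa1 and Smad7 rose over Control cells, and the fold changes of all 10 genes were above 0. The called genes were 2 of 10, both higher, where 2.94% of all genes tested were called, 1.06% higher and 1.88% lower. The median log2 fold change of the 10 was 0.51, against 0.01 over all genes tested. The values of both groups did not overlap for 9 of the 10 genes, against 38.4% of all genes.

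Pmepa1 (ENSMUSG00000038400, chromosome 2, 173066251 to 173118326, minus strand, GRCm39, exonic length 4913 bases) changed most. It stood at 524 and 453 CPM in TGF-beta cells and at 78.5 and 90.7 CPM in Control cells. Both TGF-beta libraries were far above both Control libraries, and the 5.77-fold rise (log2 2.53, SE 0.17) had an adjusted p of 0.00600. Smad7 (ENSMUSG00000025880, chromosome 18, 75500600 to 75529006, plus strand, GRCm39, exonic length 4521 bases) stood at 119.9 and 126 CPM in TGF-beta cells and at 72.2 in each of the Control libraries. Its libraries separated cleanly, with a 1.70-fold rise (log2 0.76, SE 0.13, adjusted p = 0.0406). The call on Smad7 was made in 6 of the 16 other settings tried. These include a fit with the replicate numbers of the TGF-beta group crossed, a pairing chosen after seeing the data. The call rested on all 6 libraries. Without any 1 of them its log2 fold change was 0.75 to 0.77 with an adjusted p of 0.147 to 0.209, whereas Pmepa1 was called in each of these 6 fits, with adjusted p-values of 0.0170 to 0.0286.

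The second inhibitory SMAD did not follow Smad7. Smad6 (ENSMUSG00000036867, chromosome 9, 63860358 to 63929341, minus strand, GRCm39, exonic length 3205 bases) stood at 123 and 112 CPM in TGF-beta cells and at 99.7 and 100.1 CPM in Control cells, with a log2 fold change of 0.23 (SE 0.14, adjusted p = 0.579). The groups did not overlap, but the difference did not pass the test. The ratio of Smad7 to Smad6 in FPKM was 0.693 and 0.795 in TGF-beta cells and 0.513 and 0.512 in Control cells, so the balance within the pair was higher towards Smad7 in both TGF-beta libraries.

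Among the other membrane inhibitors, Ldlrad4 (ENSMUSG00000024544, chromosome 18, 68066328 to 68401701, plus strand, GRCm39, exonic length 5371 bases) had the second largest fold change, 2.61-fold (log2 1.39, SE 0.32), and its adjusted p was 0.0901. It stood at 12.6 and 20.3 CPM in TGF-beta cells and at 7.71 and 4.86 CPM in Control cells. Its counts are uncertain, because Fam210a overlaps it on the other strand with 3792 summed counts against 1371 for Ldlrad4, and the strand setting of the counting was not given. Bambi (ENSMUSG00000024232, chromosome 18, 3507923 to 3516404, plus strand, GRCm39, exonic length 5074 bases) stood at 71.8 and 53.7 CPM in TGF-beta cells and at 44.5 and 52.4 CPM in Control cells. The lower TGF-beta value was only just above the higher Control value, and the log2 fold change of 0.37 (SE 0.21) had an adjusted p of 0.519.

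None of the 3 corepressors passed the test. Skil (ENSMUSG00000027660, chromosome 3, 31149207 to 31176726, plus strand, GRCm39, exonic length 9694 bases) stood at 202 and 242 CPM in TGF-beta cells and at 145 and 111 CPM in Control cells, 1.73-fold apart (log2 0.79, SE 0.21, adjusted p = 0.121). Its fold change was as large as that of Smad7, with a wider spread between libraries. Ski (ENSMUSG00000029050, chromosome 4, 155238532 to 155307049, minus strand, GRCm39, exonic length 5562 bases) stood at 211 and 246 CPM in TGF-beta cells and at 176 and 161 CPM in Control cells, with a log2 fold change of 0.44 (SE 0.16, adjusted p = 0.268). Tgif1 (ENSMUSG00000047407, chromosome 17, 71151200 to 71160541, minus strand, GRCm39, exonic length 5625 bases) stood at 69.0 and 71.5 CPM in TGF-beta cells and at 56.9 and 56.7 CPM in Control cells, a small and tight difference with a log2 fold change of 0.31 (SE 0.13, adjusted p = 0.366).

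The ligases were not called either. Smurf1 (ENSMUSG00000038780, chromosome 5, 144813305 to 144902657, minus strand, GRCm39, exonic length 6336 bases) was the only member whose TGF-beta and Control libraries overlapped, at 124 and 176 CPM in TGF-beta cells and 132 and 97.4 CPM in Control cells (log2 0.39, SE 0.24, adjusted p = 0.585). Smurf2 (ENSMUSG00000018363, chromosome 11, 106710892 to 106811541, minus strand, GRCm39, exonic length 6162 bases) stood at 134 and 183 CPM in TGF-beta cells and at 119 and 90.3 CPM in Control cells (log2 0.59, SE 0.24, adjusted p = 0.319).

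The second comparison, which shares the TGF-beta libraries with the first, asks what K-80003 did to these genes in cells that also had TGF-beta. Smad6 and Pmepa1 fell and Tgif1 rose in TGF-beta-K-80003 cells relative to TGF-beta cells, so the inhibitors moved in opposite directions. The 3 called genes of 10 stand beside 10.1% of all genes called, with 2.78% called higher and 7.32% called lower. Of the 10 fold changes 6 were above 0 and 4 below, and their median of 0.07 on the log2 scale was close to the 0.01 over all genes. The values of both groups did not overlap for 5 of the 10 genes, against 51.4% of all genes, so by that count the members were near the background.

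Smad6 fell furthest. It stood at 57.1 and 63.9 CPM in TGF-beta-K-80003 cells, against 123 and 112 CPM in TGF-beta cells. Both K-80003 libraries lay well below both TGF-beta libraries and also below both Control libraries, and the level was 0.516-fold that of TGF-beta cells (log2 -0.95, SE 0.15, adjusted p = 0.0102). Pmepa1 stood at 289.7 and 315 CPM in TGF-beta-K-80003 cells, against 524 and 453 CPM in TGF-beta cells. The fall to 0.619-fold (log2 -0.69, SE 0.16, adjusted p = 0.0424) left it above both Control libraries. Tgif1 went the other way, with 138 and 135 CPM in TGF-beta-K-80003 cells and 69.0 and 71.5 CPM in TGF-beta cells. Its 1.94-fold rise (log2 0.96, SE 0.13, adjusted p = 0.00759) had the smallest adjusted p of the 10 genes in this comparison, and its replicates lay close together, with an SD of 2.27 CPM in TGF-beta-K-80003 cells and 1.75 CPM in TGF-beta cells. Tgif1 overlaps the gene Gm9320 on the other strand, which had 243 summed counts against 9198 for Tgif1.

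Each of these 3 calls was lost in some fits that left out 1 library. The adjusted p of Smad6 was 0.0762 without TGF-beta replicate 1, 0.142 without TGF-beta-K-80003 replicate 1 and 0.0958 without TGF-beta-K-80003 replicate 2, the library with the hepatocyte markers. That of Tgif1 was 0.0597 and 0.0595 without TGF-beta replicate 1 and replicate 2, and 0.0929 and 0.0859 without TGF-beta-K-80003 replicate 1 and replicate 2. Pmepa1 kept its call in the fit that left out Control replicate 1, at 0.0445. Its adjusted p was 0.0575 when Control replicate 2 was left out, 0.257 and 0.0894 for TGF-beta replicates 1 and 2, and 0.323 and 0.241 for TGF-beta-K-80003 replicates 1 and 2. On log2(FPKM + 1) limma gave Pmepa1 an adjusted p of 0.0947. The fold changes of these 3 genes did not change direction in any of the 16 other settings.

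Smad7 missed the threshold narrowly. It stood at 83.9 CPM in each TGF-beta-K-80003 library and at 119.9 and 126 CPM in TGF-beta cells, 0.684-fold (log2 -0.55, SE 0.13, adjusted p = 0.0515). The groups did not overlap. Smad7 was called in 3 of the 16 other settings, among them upper-quartile scaling (0.0437) and DESeq2 (0.0422), and in 0 of the 6 fits without 1 library, where the adjusted p was 0.0719 to 0.352. The other of those 3 settings crossed the replicate numbers of the TGF-beta group, a pairing chosen after seeing the data. The Smad7 to Smad6 ratio in FPKM was 1.04 and 0.930 in TGF-beta-K-80003 cells and 0.693 and 0.795 in TGF-beta cells. Both inhibitory SMADs thus stood at nearly the same level per length with K-80003.

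The remaining 6 genes were not called, and 5 of them, all but Smurf1, overlapped between the groups. Ldlrad4 stood at 18.6 and 15.1 CPM in TGF-beta-K-80003 cells and at 12.6 and 20.3 CPM in TGF-beta cells (log2 0.04, SE 0.31, adjusted p = 0.966). Bambi stood at 59.4 and 74.7 CPM in TGF-beta-K-80003 cells and at 71.8 and 53.7 CPM in TGF-beta cells (log2 0.10, SE 0.21, adjusted p = 0.850). For both membrane proteins the fold change was smaller than its SE, which differs from Pmepa1, the third of the group, although no test compared the genes with each other. Ski stood at 276 and 241 CPM in TGF-beta-K-80003 cells and at 211 and 246 CPM in TGF-beta cells (log2 0.18, SE 0.16, adjusted p = 0.596). Skil stood at 224 and 178 CPM in TGF-beta-K-80003 cells and at 202 and 242 CPM in TGF-beta cells (log2 -0.14, SE 0.21, adjusted p = 0.766). The SKI family thus showed no difference past the spread, unlike Tgif1. Smurf1 stood at 227 and 187 CPM in TGF-beta-K-80003 cells, both above the 124 and 176 CPM of TGF-beta cells (log2 0.46, SE 0.24, adjusted p = 0.329). Smurf2 stood at 202 and 156 CPM in TGF-beta-K-80003 cells and at 134 and 183 CPM in TGF-beta cells (log2 0.17, SE 0.24, adjusted p = 0.745).

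Promoter sequences from RefSeq (GRCm38.p6) were matched by symbol for 5 of the 10 genes, Smad6, Tgif1, Ski, Smurf1 and Smurf2, with 5 start sites for Tgif1 and thus 9 windows in all. The 250 bases before the start are shown, 5′ to 3′ on the minus strand, for Smad6 (chr9:64022060-64022309) and Tgif1 (chr17:70853533-70853782, the first of its starts in the table), which moved in opposite directions with K-80003, and for Smurf1 (chr5:144965831-144966080) and Smurf2 (chr11:106920716-106920965), the 2 members with the most similar pattern over the libraries. Capitals mark the SMAD half-element CAGAC and the GC-rich SMAD element GGCGC, also where the reverse complement of either stands.
Smad6: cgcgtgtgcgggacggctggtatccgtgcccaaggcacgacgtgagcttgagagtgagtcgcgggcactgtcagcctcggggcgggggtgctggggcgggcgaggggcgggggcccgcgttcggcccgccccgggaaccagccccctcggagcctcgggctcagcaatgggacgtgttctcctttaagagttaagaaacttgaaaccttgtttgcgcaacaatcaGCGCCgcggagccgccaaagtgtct
Tgif1: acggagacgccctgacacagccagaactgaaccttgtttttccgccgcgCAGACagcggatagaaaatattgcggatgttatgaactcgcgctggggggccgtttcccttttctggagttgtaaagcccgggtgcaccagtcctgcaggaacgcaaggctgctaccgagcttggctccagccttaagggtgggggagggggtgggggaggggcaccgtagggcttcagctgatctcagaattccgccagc
Smurf1: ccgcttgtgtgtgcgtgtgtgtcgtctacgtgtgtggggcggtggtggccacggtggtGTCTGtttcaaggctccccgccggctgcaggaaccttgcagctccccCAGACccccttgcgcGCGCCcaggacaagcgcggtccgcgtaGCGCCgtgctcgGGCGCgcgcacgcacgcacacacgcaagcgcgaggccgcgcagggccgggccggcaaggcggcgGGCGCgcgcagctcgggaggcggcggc
Smurf2: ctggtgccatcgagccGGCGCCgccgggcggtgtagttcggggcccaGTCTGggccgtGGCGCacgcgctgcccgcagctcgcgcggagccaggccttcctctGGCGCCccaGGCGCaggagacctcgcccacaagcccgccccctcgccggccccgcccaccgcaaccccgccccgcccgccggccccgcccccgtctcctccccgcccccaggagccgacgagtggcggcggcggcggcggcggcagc
The Smad6 window held GGCGC at 1 place and CAGAC at 0, and the Tgif1 window held CAGAC at 1 place and GGCGC at 0. Smurf1 held CAGAC at 2 places and GGCGC at 4. Smurf2 held CAGAC at 1 place and GGCGC in 6 matches over both strands. Each stretch GGCGCC there was counted on both strands, so some of the 6 matches overlap. CAGAC occurred in 5 of the 9 windows, against 42.2% of 32851 promoter windows of the same length, and GGCGC in 5 of the 9, against 32%. The share of G and C was 66.8% for Smad6, 59.6% for Tgif1, 74.8% for Smurf1 and 82.0% for Smurf2 in the windows printed, against a median of 52.4% over all promoters. In the fourth and the fifth Tgif1 window it was 51.2% and 38.0%. The SMAD palindrome GTCTAGAC was in 0 of the 9 windows and in 0.167% of all promoters. The nuclear receptor half-site AGGTCA, searched on both strands like the others, was in 1 of the 9 windows, that of the fourth Tgif1 start, and in 14% of all promoters. These matches describe the letters of the windows only.

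Set against Control cells, TGF-beta-K-80003 cells had higher Pmepa1, Tgif1, Ldlrad4 and Ski and lower Smad6. This comparison combines both agents and shares its libraries with the comparisons above. The 5 called genes of 10, 4 higher and 1 lower, stand beside 17.3% of all genes called, 5.54% higher and 11.7% lower. The median log2 fold change of the 10 was 0.71, against 0.02 over all genes, and the values of both groups did not overlap for any of the 10 genes, against 55.5% of all genes.

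Pmepa1 averaged 302 ± 17.8 CPM in TGF-beta-K-80003 cells and 84.6 ± 8.60 CPM in Control cells, 3.57-fold higher (log2 1.84, SE 0.16, adjusted p = 0.00111). Tgif1 averaged 136 ± 2.27 CPM in TGF-beta-K-80003 cells and 56.8 ± 0.193 CPM in Control cells, 2.40-fold higher (log2 1.26, SE 0.13, adjusted p = 0.00195). Both calls held in all 16 other settings, including each fit without 1 library. Smad6 averaged 60.5 ± 4.82 CPM in TGF-beta-K-80003 cells and 99.9 ± 0.295 CPM in Control cells, 0.606-fold (log2 -0.72, SE 0.14, adjusted p = 0.0189). It was the only 1 of the 10 with a fold change below 0 against Control cells. Leaving out Control replicate 1 or 2 gave Smad6 an adjusted p of 0.0621 or 0.0797, and leaving out TGF-beta-K-80003 replicate 1 or 2 gave 0.201 or 0.124.

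Ldlrad4 averaged 16.9 ± 2.46 CPM in TGF-beta-K-80003 cells and 6.28 ± 2.01 CPM in Control cells, 2.69-fold higher (log2 1.43, SE 0.32, adjusted p = 0.0283), nearly the same fold change as that of TGF-beta alone. Its adjusted p was 0.0993 without Control replicate 2, 0.133 without TGF-beta-K-80003 replicate 1 and 0.0779 without replicate 2 of that group. Ski averaged 258 ± 24.9 CPM in TGF-beta-K-80003 cells and 169 ± 10.7 CPM in Control cells, 1.53-fold higher (log2 0.61, SE 0.16, adjusted p = 0.0451). The Ski call was lost without any 1 library, with adjusted p-values of 0.0704 to 0.303, and with upper-quartile scaling, at 0.0554. Skil, Smurf1 and Smurf2 were not called, at 1.57-fold (adjusted p = 0.0819), 1.8-fold (0.0604) and 1.70-fold (0.0774). Smad7 stood at 83.9 ± 0.0501 CPM in TGF-beta-K-80003 cells and 72.2 ± 0.0532 CPM in Control cells (log2 0.22, SE 0.13, adjusted p = 0.347), and Bambi at 67.1 ± 10.8 CPM in TGF-beta-K-80003 cells and 48.5 ± 5.59 CPM in Control cells (log2 0.47, SE 0.21, adjusted p = 0.194).

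**Figure D3:**
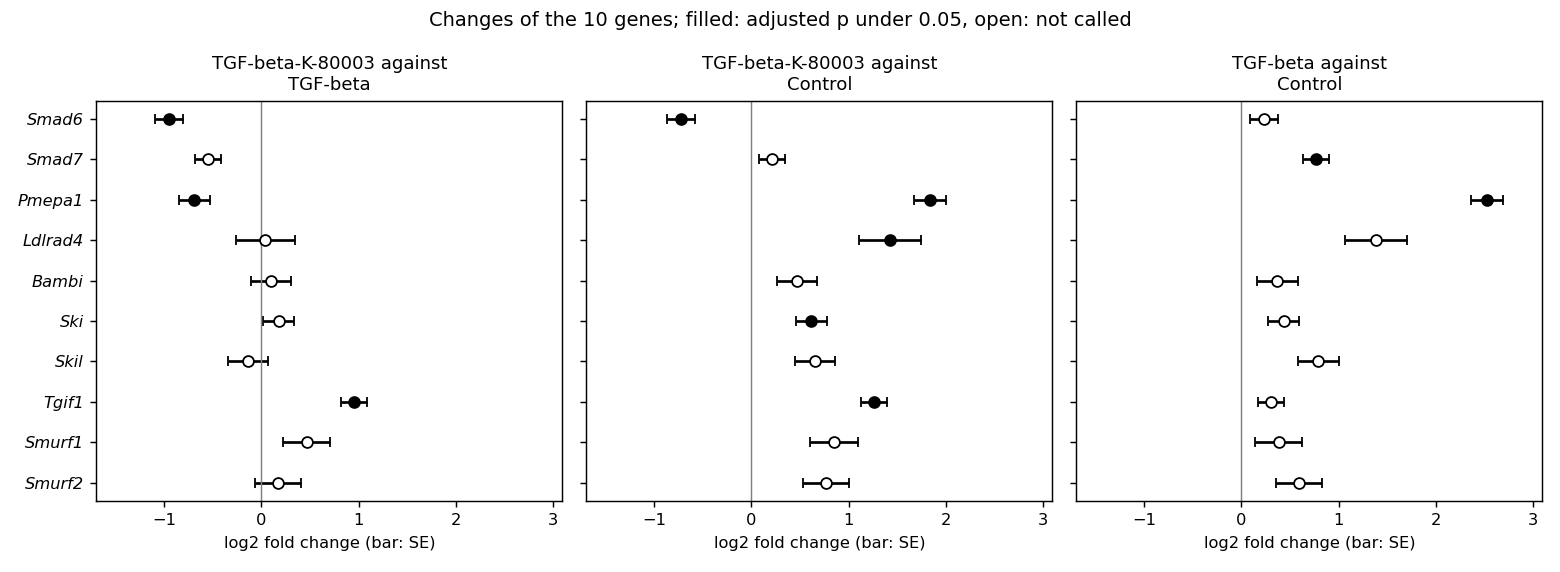
Log2 fold change (horizontal axes; bars are SE of the fit, 2 libraries a group) of the 10 genes (rows) in the 3 comparisons; filled points have an adjusted p under 0.05. Smad6 and Pmepa1 lie left of 0 and Tgif1 right of 0 for TGF-beta-K-80003 against TGF-beta, and all 10 points lie right of 0 for TGF-beta against Control.

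The genes also differed in how they varied within a group. Of the 10 genes, 6 (Ski, Skil, Tgif1, Ldlrad4, Smurf1 and Smurf2) had the higher of their replicate values in TGF-beta-K-80003 replicate 1, TGF-beta replicate 2 and Control replicate 1. The opposite split was seen for Smad6, Pmepa1 and Bambi, and Smad7 had a split of its own. Over all genes tested 32.8% showed the first of these splits and 30.8% the second, so it was shared by the libraries at large. Its size differed between members. For Smurf1 replicate 1 differed from replicate 2 by 0.28 on the log2 scale in TGF-beta-K-80003 cells, by -0.51 in TGF-beta cells and by 0.44 in Control cells. For Tgif1 the same differences were 0.03, -0.05 and 0.01. The spread between replicates was thus wide for both Smurf genes, Skil, Bambi and Ldlrad4 and narrow for Smad7 and Tgif1.

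Over all 6 libraries the most similar members were Smurf1 and Smurf2, whose log2 levels, each centred on its own mean, differed by a root-mean-square of 0.129. Ski and Smurf2 differed by 0.135 and Skil and Smurf2 by 0.145, while Smad6 and Pmepa1 were farthest apart at 1.14. The ratio of Smurf2 to Smurf1 in FPKM was 0.912 and 0.857 in TGF-beta-K-80003 cells, 1.11 and 1.07 in TGF-beta cells, and 0.930 and 0.953 in Control cells. The ligases were thus close in level, yet the groups did not overlap in their ratio. Smurf2 was above Smurf1 only in TGF-beta cells, and the difference in ratio was not tested. The ratio of Skil to Ski was 0.467 and 0.424 in TGF-beta-K-80003 cells, 0.550 and 0.564 in TGF-beta cells, and 0.472 and 0.395 in Control cells. Relative to the decoy receptor Bambi, Pmepa1 was 5.04 and 4.35 times as high in FPKM in TGF-beta-K-80003 cells, 7.54 and 8.71 times in TGF-beta cells, and 1.82 and 1.78 times in Control cells. The groups did not overlap in this ratio.

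**Figure D4:**
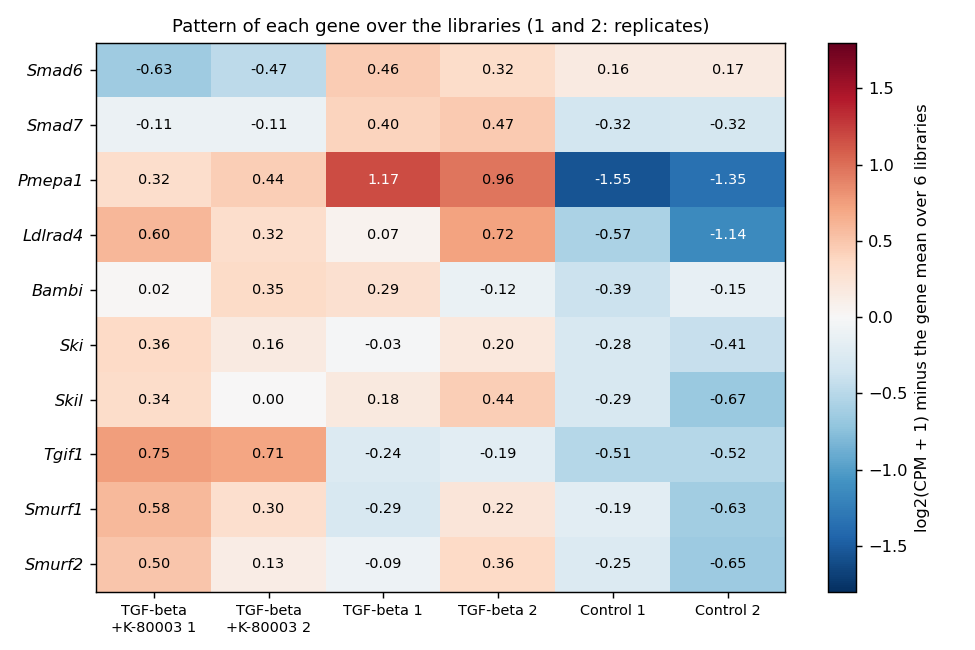
Log2(CPM + 1) of each gene (rows) minus its own mean over the 6 libraries, for each library (columns); red is above the mean and blue below. Pmepa1 runs from 1.17 in TGF-beta replicate 1 to -1.55 in Control replicate 1, Tgif1 is at 0.75 and 0.71 and Smad6 at -0.63 and -0.47 in the TGF-beta-K-80003 libraries.

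The genes around these inhibitors in the pathway were described from 7 lists. Of all genes tested, 2.78% were called higher and 7.32% lower for TGF-beta-K-80003 against TGF-beta. For TGF-beta against Control these shares were 1.06% and 1.88%. Among the 7 signal-transducing SMADs and their anchor, 0 were called in TGF-beta cells against Control cells, and 2 were called lower and 0 higher in TGF-beta-K-80003 cells against TGF-beta cells. Those 2 were SMADs of the BMP branch, on which Smad6 mainly acts. Smad1 stood at 36.2 and 41.3 CPM in TGF-beta-K-80003 cells and at 64.8 and 62.6 CPM in TGF-beta cells (log2 -0.72, adjusted p = 0.0273). Smad9 stood at 2.88 and 2.52 CPM in TGF-beta-K-80003 cells and at 8.76 and 13.1 CPM in TGF-beta cells (log2 -2.01, adjusted p = 0.00558). Smad2, Smad3, Smad4 and Smad5 were not called in that comparison, with log2 fold changes of 0.11, 0.36, 0.17 and -0.32. Of these calls, that on Smad1 was kept in 2 of 6 fits without 1 library and that on Smad9 in 5 of 6.

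Of the 7 BMP and SMAD1/5 targets tested, 5 were called lower and 1 higher in TGF-beta-K-80003 cells against TGF-beta cells, and 0 were called in TGF-beta cells against Control cells. Id1, the remaining target tested, was not called in either comparison. Smad6 is itself known as a target of BMP signalling, but a link of its fall to these targets was not tested. Atoh8, a transcription factor gene, stood at 12.5 and 13.0 CPM in TGF-beta-K-80003 cells and at 47.9 and 49.3 CPM in TGF-beta cells (log2 -1.93, adjusted p = 0.000912). Id2 and Id3, inhibitors of basic helix-loop-helix factors, had log2 fold changes of -1.68 and -2.09. The called gene that rose was Grem1, a secreted BMP antagonist, at 4.56 and 4.16 CPM in TGF-beta-K-80003 cells against 0.226 and 0.185 CPM in TGF-beta cells (log2 4.35). The number of targets called lower was 1 without TGF-beta-K-80003 replicate 1, 3 without replicate 2 of that group or TGF-beta replicate 1, and 4 or 5 in the other fits without 1 library.

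Further downstream stand the targets of TGF-beta and SMAD3. Of 18 tested, 7 were called higher and 0 lower in TGF-beta cells against Control cells, with a median log2 fold change of 0.96. Itgb5, an integrin subunit, and Col1a1, a chain of type I collagen, both rose by 1.66 on the log2 scale. With K-80003 added, 11 of the 18 were called lower and 1 higher relative to TGF-beta cells, with a median of -0.95. Ltbp2, a matrix protein of microfibrils, stood at 2.52 and 1.93 CPM in TGF-beta-K-80003 cells and at 45.6 and 63.5 CPM in TGF-beta cells (log2 -4.61, adjusted p = 0.00107), and Acta2, the myofibroblast actin, had a log2 fold change of -2.34. The target called higher was Runx1 (log2 1.37), a transcription factor gene, in 3 of 6 fits without 1 library. The values of the inhibitors beside these were a fall of Pmepa1 to 0.619-fold and a median log2 change of 0.07. The number of targets called lower with K-80003 was 4 without either TGF-beta-K-80003 library, 6 and 8 without TGF-beta replicate 1 and replicate 2, and 10 without either Control library.

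Upstream of the inhibitors, 5 of 9 ligand genes tested were called lower and 1 higher in TGF-beta-K-80003 cells against TGF-beta cells. Tgfb2 stood at 14.6 and 14.5 CPM in TGF-beta-K-80003 cells and at 105 and 118 CPM in TGF-beta cells (log2 -2.94), and Tgfb3 and the BMP-family ligand gene Gdf2 had log2 fold changes of -2.56 and -2.50. In TGF-beta cells against Control cells 3 ligand genes were called lower, Bmp2, Gdf2 and Inhbb, with log2 fold changes of -2.04, -1.55 and -1.36, and 0 higher. When 1 library was left out, 1 gene was called lower without TGF-beta replicate 1 and 2 in each of the other fits, and Inhbb was called in 0 of the 6 (adjusted p 0.0618 to 0.197). Of 12 receptors and coreceptors, 2 were called lower and 1 higher with K-80003. The lower ones were Tgfbr2, the type II TGF-beta receptor (log2 -1.15, adjusted p = 0.0294), and Eng, the coreceptor endoglin (log2 -1.09, adjusted p = 0.0129). Each kept its call in 3 of 6 fits without 1 library. The genes called higher were the ligand Bmp6 (log2 0.86) and the receptor Acvrl1 (log2 1.18), each called in 2 of those 6 fits. The type I receptor gene Tgfbr1 was not called, with log2 fold changes of -0.06 for TGF-beta-K-80003 against TGF-beta and 0.27 for TGF-beta against Control.

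Of all genes tested, 10.1% were called in TGF-beta-K-80003 cells against TGF-beta cells. Among 16 other negative regulators and ubiquitin or phosphatase enzymes of the pathway, 1 was called higher and 0 lower in that comparison. It was Nedd4l, a ubiquitin ligase of the same HECT class as the SMURFs, at 72.7 and 66.0 CPM in TGF-beta-K-80003 cells and 39.6 and 44.0 CPM in TGF-beta cells (log2 0.73, adjusted p = 0.0299). The call was kept in 2 of 6 fits without 1 library. Of 8 partners of the corepressor complexes, 0 were called in that comparison and 0 in TGF-beta cells against Control cells. Their median log2 fold changes were -0.11 and 0.03, with ranges of -0.61 to 0.58 and -0.18 to 1.03. The medians were thus near 0, while single partners were not. In TGF-beta-K-80003 cells against Control cells 1 of the 8 was called higher and 0 lower, beside 5.54% and 11.7% of all genes.

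**Figure D5:**
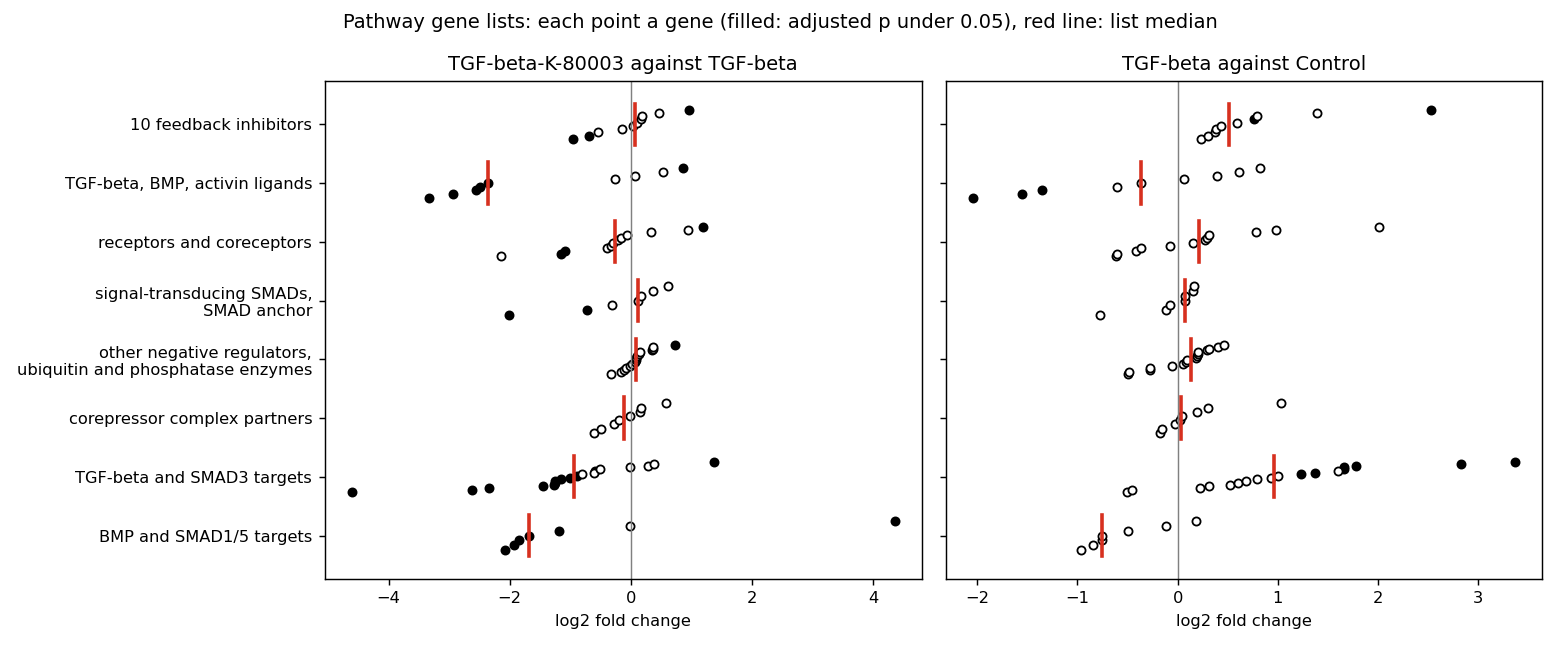
Log2 fold change (horizontal axes) of each gene in the 10 inhibitors and the 7 pathway lists (rows), filled where the adjusted p is under 0.05; red lines are list medians. For TGF-beta-K-80003 against TGF-beta the medians of ligands (-2.36), SMAD3 targets (-0.95) and BMP targets (-1.68) lie left of 0 and that of the inhibitors at 0.07.

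Markers of other cell types moved with the groups as well. The 6 sinusoidal endothelial markers summed to 120.2 and 103 FPKM in TGF-beta-K-80003 cells, 44.7 and 57.8 FPKM in TGF-beta cells, and 73.0 and 52.8 FPKM in Control cells, led by Cdh5. Cdh5 itself was at 85.3 and 71.1 FPKM in TGF-beta-K-80003 cells, 28.1 and 37.5 FPKM in TGF-beta cells, and 35.7 and 21.6 FPKM in Control cells. Cdh5 carried most of the sum, and the members did not move as 1 list. In TGF-beta-K-80003 cells against TGF-beta cells 2 of the 6 were called higher and 1 lower, beside 2.78% and 7.32% of all genes. Against Control cells 3 were called higher and 2 lower, beside 5.54% and 11.7% of all genes. The median log2 fold change of the 6 against Control cells was -0.01. Lyve1, a marker of sinusoidal endothelium, was at 0.0200 and 0.0400 FPKM in TGF-beta-K-80003 cells, 0.620 and 0.870 FPKM in TGF-beta cells, and 4.14 and 3.90 FPKM in Control cells. The 8 cholangiocyte and mesothelial markers summed to 104 and 131 FPKM in TGF-beta-K-80003 cells, 143 and 112 FPKM in TGF-beta cells, and 421 and 619 FPKM in Control cells, and Krt18 and Krt8 made up most of the sum. All 7 tested were called lower in TGF-beta-K-80003 cells against Control cells, beside 11.7% of all genes. Against TGF-beta cells 0 were called. The cholangiocyte and mesothelial sum was highest in the Control group, where Pmepa1 was lowest by group. Between the Control libraries it was higher in replicate 2, as was Pmepa1. Its values overlapped between TGF-beta-K-80003 and TGF-beta cells, where those of Pmepa1 did not. A link between them was not tested. The 4 portal fibroblast markers summed to 46.2 and 44.2 FPKM in TGF-beta-K-80003 cells, 47.5 and 51.4 FPKM in TGF-beta cells, and 15.6 and 11.8 FPKM in Control cells. These markers did not move as 1 list either. Of the 3 tested, 1 was called lower and 0 higher in TGF-beta-K-80003 cells against TGF-beta cells, with log2 fold changes from -3.01 to 0.18. Against Control cells 1 was called higher and 1 lower, beside 5.54% and 11.7% of all genes. The 6 macrophage markers summed to 14.8 and 19.8 FPKM in TGF-beta-K-80003 cells, 29.0 and 26.1 FPKM in TGF-beta cells, and 29.1 and 29.7 FPKM in Control cells. Of the 4 tested, 1 was called lower and 0 higher in TGF-beta-K-80003 cells against TGF-beta cells, beside 7.32% and 2.78% of all genes. Against Control cells 2 were called lower and 0 higher, beside 11.7% and 5.54%. The Kupffer cell markers Clec4f and Vsig4 had at most 5 counts in any library and the mesothelial marker Upk3b at most 2, while no gene of the lists was at 0 in all libraries. The part of these cell types, and of the lower stellate marker sum with K-80003, in the changes of the 10 genes was not tested.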

How the data were processed

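Polyadenylated RNA of 6 libraries was sequenced, 2 for each of TGF-beta-K-80003, TGF-beta and Control. The submitters' processing notes name the build GRCm39 and, with no role, HISAT2 2.0.1, HTSeq 0.6.1, cutadapt 1.9.1, Cufflinks 2.2.1, SAMtools 0.1.19 and DESeq2. Annotation release and strand setting are not given in the sources used here. Reads of genes that overlap on opposite strands can therefore not be told apart. The authors deposited whole-number read counts per gene, not normalized. The authors also deposited FPKM values, which matched counts per exonic length and summed library count within 0.006 for 100% of values. Gene coordinates are those of the deposited table, counted from 1.

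Counts were tested with edgeR 4.0.16 (R 4.3.3), using TMM scaling, filterByExpr (minimum count 10, minimum total 15) and the quasi-likelihood test in 1 fit to all 6 libraries without a block (3 residual and 3.45 prior degrees of freedom, common dispersion 0.038). The filter kept 15987 genes, and those left out held 0.13% of the counts. Tests were two-sided, with Benjamini-Hochberg adjustment over every gene tested. A gene was called when its adjusted p was under 0.05. Levels are given as mean ± SD over 2 libraries, and the SE of a log2 fold change comes from the fit. The code was tested on simulated counts. Alternatives were median-of-ratios and upper-quartile scaling, no filter, DESeq2 1.42.0, limma 3.58.1 on log2(FPKM + 1) and log2(FPKM + 0.1), fits to the 2 groups compared, a replicate block and leaving out each library. A crossed replicate block was chosen after seeing the data.

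The 10 genes, the 7 pathway lists and the 6 marker lists were chosen with earlier results of these data known. The text names all 10 members, the called list genes with the smallest p (at most 4 a list for TGF-beta against Control and for TGF-beta-K-80003 against TGF-beta), the signal-transducing SMADs, Tgfbr1 and Tgfbr2, the most abundant markers, and the 3 genes whose pattern over the libraries was nearest to each of Pmepa1, Smad7 and Skil, except 1 gene that is not reported here. Clec4f, Vsig4, Upk3b, Lrat, Lyve1 and Id1 were named after their values were seen. Promoter windows came from a RefSeq table of build GRCm38.p6, in the orientation of the gene's strand, and no coordinates were converted between builds.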

Additional observations from a re-analysis of the deposited data

How the results depend on the processing

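With 2 libraries a group and 3 residual degrees of freedom, the calls that held in all 16 other settings were Pmepa1 in both comparisons with Control and Tgif1 in TGF-beta-K-80003 against Control. Against Control, TGF-beta cells had 2 called members, and also 2 with median-of-ratios scaling, upper-quartile scaling and limma on log2(FPKM + 1). The count was 4 without the low-count filter and with DESeq2, which both added Skil and Ldlrad4. It was 1 with limma on log2(FPKM + 0.1), with limma without a filter, in the fit to the 2 groups, with the replicate block and in each fit without 1 library; Pmepa1 was called in all of these. For TGF-beta-K-80003 against TGF-beta the count was 3, with 2 to 4 under the other scalings, filters and tools, 1 with the replicate block and 0 to 3 without 1 library. For TGF-beta-K-80003 against Control it was 5, with 8 in DESeq2, 3 in limma without a filter, 2 with the replicate block and 2 to 5 without 1 library. Where the call counts moved, the cause was not tested. The fits without 1 library differed from the main fit both in the number of libraries and in which library was left out.

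The 480 other values of single members include those of the crossed replicate block, a pairing chosen after seeing the data. Of the 480, 399 kept direction and side of the threshold, 48 lost a call, 26 gained one, in part from that block, and 7 changed direction. All 7 were for TGF-beta-K-80003 against TGF-beta, in uncalled genes. Over the fits without 1 library the log2 fold change of Ldlrad4 ran from -0.26 to 0.38, that of Smurf2 from -0.030 to 0.37, that of Bambi from -0.14 to 0.33 and that of Skil from -0.32 to 0.013. Ldlrad4 and Smurf2 turned negative without replicate 1 of TGF-beta-K-80003 or of TGF-beta, Bambi without replicate 2 of either, and Skil turned positive without replicate 2 of TGF-beta-K-80003. Over all genes, 138 of 603 calls for TGF-beta against Control and 556 of 1383 for TGF-beta-K-80003 against TGF-beta were higher with limma on log2(FPKM + 1), against 170 of 470 and 445 of 1616 with edgeR. With limma on log2(FPKM + 0.1) these were 125 of 487 and 561 of 1482. For TGF-beta against Control 1143 genes were called without a filter, 738 with DESeq2, 199 in the fit to 2 groups, 130 with limma without a filter and 89 to 218 without 1 library. For TGF-beta-K-80003 against TGF-beta these were 2492 without a filter, 698 with limma without a filter and 451 to 1661 without 1 library, and for TGF-beta-K-80003 against Control, where 2758 were called with edgeR, they were 1636 with limma without a filter and 996 to 2397 without 1 library. On log2(FPKM + 0.1) the median of all genes moved by -0.11 for TGF-beta against Control and by 0.11 for TGF-beta-K-80003 against TGF-beta.

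The replicate numbers were not taken to pair libraries. Deviations of same-numbered libraries correlated at -0.750 for TGF-beta and Control, 0.643 for TGF-beta-K-80003 and Control and -0.640 for TGF-beta-K-80003 and TGF-beta, and with the block 40 genes were called for TGF-beta against Control (470 without it), 792 for TGF-beta-K-80003 against TGF-beta (1616) and 1564 for TGF-beta-K-80003 against Control (2758). The numbers were also crossed for the TGF-beta group, a pairing chosen after seeing the data. For TGF-beta against Control, 9 of the 10 members were then called, beside 3708 of all 15987 genes tested. For TGF-beta-K-80003 against TGF-beta these were 5 of the 10 members and 5903 of the 15987 genes. For TGF-beta-K-80003 against Control they were 9 of the 10 members and 7352 of the 15987 genes.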

Other observations

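The genes nearest in pattern to 3 of the inhibitors were sought among 7316 genes, by the root-mean-square difference of centred log2(CPM + 1) over the 6 libraries. This likeness is a description of the libraries, which the genes share, and says nothing of shared control. Among the nearest to Pmepa1 were Pyy, which encodes the gut hormone peptide YY, at 0.116 and Lox, the collagen cross-linking enzyme, at 0.383. Pyy was a low gene here, with 4.87 and 4.63 CPM in TGF-beta-K-80003 cells, 10.8 and 8.08 CPM in TGF-beta cells, and 0.439 and 0.695 CPM in Control cells. At such levels the 1 added to CPM shrinks differences, so its likeness to Pmepa1 depends on that scale. In the edgeR fit its log2 fold change was 4.03 for TGF-beta against Control, where Pmepa1 had 2.53. For TGF-beta-K-80003 against Control it was 3.04, where Pmepa1 had 1.84. Lox stood at 806 and 712 CPM in TGF-beta-K-80003 cells, 958 and 1087 CPM in TGF-beta cells, and 148 and 109.6 CPM in Control cells, and rose with TGF-beta by 2.99 on the log2 scale (edgeR, adjusted p = 0.00600). Unlike Pmepa1, Lox was not called for TGF-beta-K-80003 against TGF-beta, with a log2 fold change of -0.43 (adjusted p = 0.247). The difference between the genes was not tested.

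Nearest to Smad7 were Ikbip at 0.0507, F2r, a thrombin receptor, at 0.0552 and Bco1, the enzyme that splits beta-carotene into retinal, at 0.0608. F2r stood at 179.6 and 174 CPM in TGF-beta-K-80003 cells, 268 and 283 CPM in TGF-beta cells, and 168 and 155 CPM in Control cells. It fell with K-80003 by 0.64 on the log2 scale (edgeR, adjusted p = 0.0338), where Smad7 had -0.55 and an adjusted p of 0.0515. Nearest to Skil were Ppfibp1 at 0.0348, Phldb2 at 0.0423 and Grb10, an adaptor that restrains insulin receptor signalling, at 0.0443. Like Skil, none of these 3 was called in any comparison, and Grb10 stood at 475 and 401 CPM in TGF-beta-K-80003 cells, 448 and 553 CPM in TGF-beta cells, and 326 and 261 CPM in Control cells.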
